A study of Mus musculus with 6 samples.

Results

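Myeloid C-type lectin receptors are surface proteins with which macrophages, microglia, dendritic cells and neutrophils bind carbohydrates and lipids of microbes and of dying cells. The 10 genes described here are Clec7a, Clec4a1, Clec4a2, Clec4a3, Clec4d, Clec4e, Clec4n, Clec5a, Clec10a and Clec12a. They were picked by symbol from the 55487 genes counted, with earlier results of these data known, and all 10 were found. Clec4n fell by 0.74 and Clec4d by 0.24 on the log2 scale in Cre+ microglia, whereas Clec7a rose by 0.25 and Clec12a by 0.27. The calls of Clec4d and Clec12a were lost in some of the alternative fits. Clec4a2, Clec4a3, Clec4e and Clec5a did not pass the test, and Clec4a1 and Clec10a were too low to enter it.

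Expression was measured by RNA-seq in 6 libraries of cultured mouse cortical microglia, 3 labelled Cre− and 3 labelled Cre+. All 6 carried the floxed Nr1d1 alleles (Nr1d1 fl/fl) and all were given 1.5 μM 4-hydroxytamoxifen (4-OHT), for 2 days according to the sample descriptions. Cre+ cells carried CAG::CreERT2, a Cre recombinase that 4-OHT activates and that a ubiquitous promoter drives, so that the gene of the circadian repressor REV-ERBα could be cut in any cell type of the culture. The cells were shaken off mixed glial cultures of mouse pups aged 1 to 3 days that had been kept with GM-CSF, a growth factor for myeloid cells, and nothing in the labels ties a library to an animal. Replicates are therefore libraries, and the p-values measure the spread between these libraries.

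Receptors of this family signal in 2 main ways. Clec7a (Dectin-1) carries an activating motif in its own tail, whereas Clec4n (Dectin-2), Clec4d (MCL) and Clec4e (Mincle) pair with the adaptor chain FcRγ, encoded by Fcer1g, and Clec5a (MDL-1) pairs with DAP12, encoded by Tyrobp. These activating receptors recruit the kinase Syk and the adaptor CARD9, which lead to NF-κB and to cytokine genes. Clec4a2 (DCIR) and Clec12a (MICL) carry an inhibitory motif that recruits phosphatases such as SHP-1, encoded by Ptpn6. Clec7a is also known as a marker of microglia near plaques and of other activated microglia.

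Each library held between 87545868 and 110909129 counts on genes. Levels are given as counts per 1000000 (CPM) of a library size corrected with TMM factors, which lay between 0.986 and 1.01, and levels of different genes are compared as RPKM, that is CPM per 1000 bases of gene length. Of 11429 genes tested with edgeR's quasi-likelihood test, 579 (5.07%) had a Benjamini-Hochberg adjusted p of at most 0.05, 286 (2.5%) higher and 293 (2.56%) lower in Cre+ cells. With TMM factors taken before the filter on low genes, the order that the methods of the study describe, 829 were higher and 183 lower. The targeted gene Nr1d1 stood at 2.35, 1.20 and 1.64 CPM in Cre− replicates 1 to 3 and at 1.00, 0.945 and 1.08 CPM in Cre+ replicates 1 to 3. The Cre+ values were all lower than the Cre− values, and the log2 difference of -0.77 ± 0.25 (SE) had an edgeR adjusted p of 0.0945. These counts, 88 to 204 per library, cover the whole gene, whereas the paper describes deletion of only some of its exons. The extent of the deletion was therefore not measured here. Among the microglia and macrophage markers, Cd68 stood at 4002 ± 109 CPM (SD, n = 3) in Cre− cells, while Aif1 was at 2.71 ± 0.469 CPM, Tmem119 was under 3 CPM and P2ry12 under 1 CPM in the mean. The 12 markers summed to between 7642 and 7909 CPM in Cre− and to between 7682 and 7979 CPM in Cre+ libraries, and the 1 called among them was Itgam, the integrin CD11b, which rose by 0.18 ± 0.05 on the log2 scale (SE, edgeR adjusted p = 0.0463).

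Of the 10 receptor genes, 9 lie on chromosome 6 of GRCm38 and Clec10a lies on chromosome 11. RefSeq promoters, which span 250 bases before to 50 bases after the start of transcription, were at hand for 8 of the 10 receptors, all but Clec4n and Clec10a. The half-site AGGTCA that REV-ERB and ROR proteins bind, searched on both strands, was found in 0 of these 8 and in 18.1% of the 27025 genes with a promoter (16.3% of all 32851 promoters). The 7-letter ETS and PU.1 sequence AGGAAGT (10.7% of genes) and the E-box CACGTG (8.09%) were also found in 0 of the 8. The PU-box GAGGAA, the core bound by the myeloid factor PU.1 and a motif added after the sequences had been seen, was found in 7 of the 8 (all but Clec4a2) and in 31.3% of these genes. The promoters of the 2 receptors that rose and of the neighbours Clec4d and Clec4e are shown 5′ to 3′ on the gene's strand, with PU-boxes on either strand in capitals. They are chr6:129472730-129473029 (minus strand) for the first of 2 RefSeq starts of Clec7a, chr6:129349994-129350293 (plus strand) for Clec12a, chr6:123261857-123262156 (plus strand) for Clec4d and chr6:123289822-123290121 (minus strand) for Clec4e, in GRCm38.p6.
Clec7a: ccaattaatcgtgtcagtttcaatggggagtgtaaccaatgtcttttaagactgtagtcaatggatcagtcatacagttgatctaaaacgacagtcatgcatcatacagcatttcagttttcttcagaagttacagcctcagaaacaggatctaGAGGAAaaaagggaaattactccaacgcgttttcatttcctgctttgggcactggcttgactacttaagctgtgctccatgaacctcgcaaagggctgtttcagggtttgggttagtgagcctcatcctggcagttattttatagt
Clec12a: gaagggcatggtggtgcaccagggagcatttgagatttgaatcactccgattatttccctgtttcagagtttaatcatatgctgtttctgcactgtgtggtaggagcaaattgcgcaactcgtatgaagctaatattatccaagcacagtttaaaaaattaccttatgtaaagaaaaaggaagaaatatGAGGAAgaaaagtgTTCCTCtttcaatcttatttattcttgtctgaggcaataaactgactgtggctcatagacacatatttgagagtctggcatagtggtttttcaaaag
Clec4d: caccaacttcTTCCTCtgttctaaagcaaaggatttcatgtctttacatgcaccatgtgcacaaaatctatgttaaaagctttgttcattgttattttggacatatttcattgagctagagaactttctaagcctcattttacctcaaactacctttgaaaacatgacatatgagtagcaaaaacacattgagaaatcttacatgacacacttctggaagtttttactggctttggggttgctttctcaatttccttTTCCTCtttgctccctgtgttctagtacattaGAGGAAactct
Clec4e: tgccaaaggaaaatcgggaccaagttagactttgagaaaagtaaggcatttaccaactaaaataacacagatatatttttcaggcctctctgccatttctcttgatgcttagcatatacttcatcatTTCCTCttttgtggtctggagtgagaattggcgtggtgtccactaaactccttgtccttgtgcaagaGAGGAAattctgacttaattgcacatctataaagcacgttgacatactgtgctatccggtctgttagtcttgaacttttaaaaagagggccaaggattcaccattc
The PU-box of Clec7a starts 96 bases before the start of transcription. In Clec12a a pair of PU-boxes, 1 on each strand, starts 61 and 47 bases before it. Clec4d has 3 matches, of which 2 lie after the start, and Clec4e has 2, at 123 and 56 bases before it. The RefSeq windows of Clec4a2 and Clec12a lie inside the counted genes, which begin further upstream, at 123106428 and 129342691. The sequence at those upstream ends was not searched. A match of letters is a description of the sequence and was not tested for binding.

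Clec7a, the Dectin-1 gene and the most abundant receptor of the group, rose in Cre+ microglia. It spans 129461591 to 129472779 on the minus strand of chromosome 6, and GENCODE M21 gives it the biotype of a polymorphic pseudogene. The level was 2337, 2360 and 2355 CPM in Cre− replicates 1 to 3 and 2875, 2722 and 2781 CPM in Cre+ replicates 1 to 3. The groups did not overlap, and the Cre− libraries lay close together (coefficient of variation 0.522%, against 2.76% in Cre+). The log2 fold change was 0.25 ± 0.04 (SE, 95% interval 0.17 to 0.32), that is 1.19-fold, with an edgeR adjusted p of 6.18e-04. By RPKM, Clec7a ranked 52 to 54 among the genes tested in Cre− libraries and 45 to 50 in Cre+ libraries.

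Clec12a, the gene of the inhibitory receptor MICL, lies on the plus strand of chromosome 6 from 129342691 to 129365303. Cre− replicates 1 to 3 had 55.4, 66.2 and 60.0 CPM and Cre+ replicates 1 to 3 had 66.2, 78.7 and 74.2 CPM. Cre− replicate 2 and Cre+ replicate 1 stood at nearly the same level (66.24 and 66.20 CPM), so the groups overlapped at that point. The log2 fold change was 0.27 ± 0.07 (SE, 95% interval 0.11 to 0.43), with an edgeR adjusted p of 0.0460, just inside the threshold. The call did not hold with limma's voomWithQualityWeights (0.26, adjusted p = 0.0579), with DESeq2's size factors in edgeR (0.27, adjusted p = 0.0540), or when Cre− replicate 1 (0.21, adjusted p = 0.161), Cre− replicate 3 (0.26, adjusted p = 0.135), Cre+ replicate 2 (0.21, adjusted p = 0.175) or Cre+ replicate 3 (0.26, adjusted p = 0.142) was left out. Over its 15 alternatives, the adjusted p of Clec12a ran from 3.04e-04 to 0.175 (edgeR, limma and DESeq2).

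Clec4n, the gene of the mannan receptor Dectin-2, had the largest difference of the receptors tested. It lies on the plus strand of chromosome 6 from 123229843 to 123247021. Expression was 225, 232 and 242 CPM in Cre− replicates 1 to 3 and 126, 152 and 142 CPM in Cre+ replicates 1 to 3. All Cre+ libraries lay far below all Cre− libraries. Clec4n fell by 0.74 ± 0.06 on the log2 scale (SE, 95% interval -0.87 to -0.61), to 0.600 of the Cre− level, with an edgeR adjusted p of 2.23e-06. Its rank by RPKM moved from 264 to 269 in Cre− libraries to 438 to 512 in Cre+ libraries.

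Clec4d, the gene of MCL, which binds mycobacterial glycolipid and partners Mincle, lies next to it on the plus strand, from 123262111 to 123275265. Cre− replicates 1 to 3 held 421, 408 and 413 CPM and Cre+ replicates 1 to 3 held 341, 357 and 355 CPM. Again the groups did not overlap. The fall was 0.24 ± 0.04 on the log2 scale (SE, 95% interval -0.32 to -0.15), to 0.849 of the Cre− level, with an edgeR adjusted p of 0.00292. With TMM factors taken before the filter, or with no filter on low genes, the log2 fold change was -0.16 and the edgeR adjusted p was 0.0582 and 0.121, within a range of 2.28e-06 to 0.121 over 15 alternatives.

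Clec4e, the gene of Mincle, which binds the cord factor of mycobacteria and a nuclear protein of dead cells, ends this stretch on the minus strand, from 123281789 to 123289870. It was expressed far less, at 5.57, 6.99 and 5.25 CPM in Cre− replicates 1 to 3 and 4.66, 3.87 and 3.91 CPM in Cre+ replicates 1 to 3. Each Cre+ library lay below each Cre− library. The log2 fold change of -0.52 ± 0.15 (SE, 95% interval -0.84 to -0.19) had an edgeR adjusted p of 0.0663, above the threshold, while DESeq2 gave -0.52 with an adjusted p of 0.0253, the lowest of 15 alternatives that reached up to 0.239. Counts of Clec4e ran from 360 to 646 per library, against 33238 to 37641 for Clec4d.

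Other myeloid cells also express Clec4d, Clec4e and Clec4n. The summed level of 10 neutrophil and monocyte markers was 20.3 to 21.2 CPM in Cre− and 13.0 to 14.3 CPM in Cre+ libraries. Nearly all of it came from Chil3, a chitinase-like protein of macrophages and neutrophils that fell by 0.83 ± 0.12 on the log2 scale (edgeR adjusted p = 9.01e-04), and S100a8, whose CPM was 9.64 ± 1.13 in Cre− and 7.29 ± 0.488 in Cre+ libraries (SD, n = 3, edgeR adjusted p = 0.0719). The other 8 markers had means below 1 CPM, with S100a9 at 0 in all 3 Cre− libraries and Ly6g and Retnlg at 0 in all 3 Cre+ libraries. Dendritic cell markers summed to 6.23 to 7.59 CPM in Cre− and 7.04 to 7.35 CPM in Cre+ libraries, none called, with 6 of 8 below 1 CPM in the mean. Endothelial markers summed to 20.9 to 22.9 CPM in Cre− and 24.4 to 27.9 CPM in Cre+ libraries. Flt1, a VEGF receptor, held nearly all of this sum and rose by 0.33 ± 0.08 on the log2 scale (edgeR adjusted p = 0.0245). Of the 2 endothelial markers tested, the other had a log2 difference of -0.36 and was not called. Cldn5, Cdh5 and Pecam1 were below 1 CPM. Neuron markers summed to 2.45 to 3.23 CPM in Cre− and 1.93 to 2.08 CPM in Cre+ libraries, and fibroblast and mural markers to 1.50 to 2.66 and 0.924 to 1.10 CPM, both lower without overlap in Cre+ and with every marker below 1 CPM in the mean. The sums of the astrocyte, oligodendrocyte and lymphocyte markers overlapped between the groups. The part of such cells in the receptor values was not tested. In bulk RNA, fewer cells of a type and less RNA per cell cannot be told apart.

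**Figure D1:**
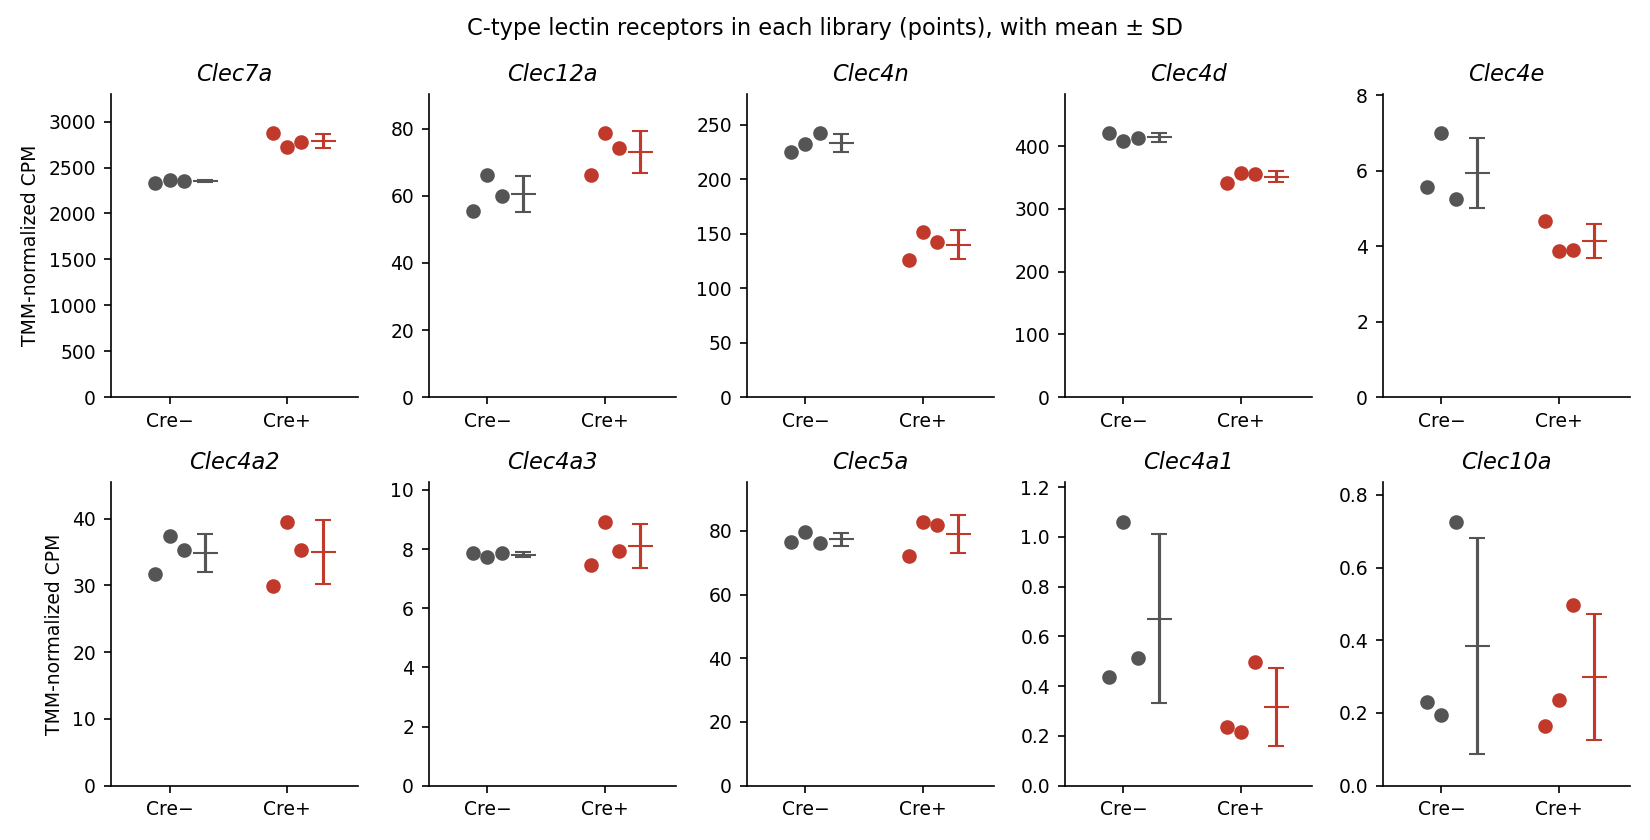
Level of each of the 10 receptors in TMM-normalized CPM (vertical axis from 0, 1 panel per gene) in the 3 Cre− (gray) and 3 Cre+ (red) libraries, points being libraries and bars the mean ± SD. Clec7a lies higher and Clec4n, Clec4d and Clec4e lie lower in every Cre+ than in every Cre− library. Clec12a overlaps at 66.2 CPM, and the other 5 genes overlap too.

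The DCIR relatives Clec4a2 and Clec4a3 did not pass the test. Clec4a2, the mouse DCIR gene with an inhibitory motif (chromosome 6, 123106428 to 123143999), stood at 31.7, 37.4 and 35.2 CPM in Cre− replicates 1 to 3 and at 30.0, 39.6 and 35.3 CPM in Cre+ replicates 1 to 3. Cre+ libraries gave both the lowest and the highest value. The log2 difference was 0.01, with a 95% interval of -0.19 to 0.20 (edgeR adjusted p = 0.985). That interval overlaps those of Clec7a (0.17 to 0.32) and Clec4d (-0.32 to -0.15), but not that of Clec4n (-0.87 to -0.61). The longest transcript of Clec4a2 is 96.3% identical to that of the neighbour Clec4b1 over 436 bases, so that reads could be split between them, although Clec4b1 had at most 319 counts in a library against 2760 or more for Clec4a2.

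Clec4a3 (chromosome 6, 122952515 to 122969875), a relative of DCIR, was lower, at 7.85, 7.72 and 7.86 CPM in Cre− replicates 1 to 3 and 7.45, 8.93 and 7.93 CPM in Cre+ replicates 1 to 3. The narrow Cre− range lay inside that of the Cre+ libraries. Its log2 difference was 0.05, with a 95% interval of -0.20 to 0.30 (edgeR adjusted p = 0.869). Between the longest transcripts, Clec4a3 shared 79.3% identity with Clec4a2 over 682 bases, 75.3% with Clec4a1 over 507 bases and 67.5% with Clec4n over 286 bases.

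Clec5a, the gene of the DAP12 partner MDL-1, lies apart from the other receptors on chromosome 6, from 40574894 to 40585821. Its level was 76.4, 79.8 and 76.1 CPM in Cre− replicates 1 to 3 and 72.2, 82.9 and 81.7 CPM in Cre+ replicates 1 to 3. The lowest and the highest library were both Cre+. The log2 difference was 0.03 with a 95% interval of -0.10 to 0.15 (edgeR adjusted p = 0.865). That interval does not overlap those of Clec7a (0.17 to 0.32) or Clec4d (-0.32 to -0.15).

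Clec4a1 and Clec10a stayed below 1 CPM in at least 5 of the 6 libraries. Clec4a1, another DCIR relative (chromosome 6, 122921848 to 122934619), had 38, 98 and 46 counts in Cre− replicates 1 to 3 and 26, 20 and 50 counts in Cre+ replicates 1 to 3. In CPM, Cre+ replicate 3 (0.496) lay above Cre− replicate 1 (0.437) and below Cre− replicates 2 and 3 (1.06 and 0.514). An exact 2-sided permutation test of CPM gave p = 0.2, where the smallest p of 3 libraries against 3 is 0.1. Clec10a, the gene of the galactose-binding lectin MGL1 (chromosome 11, 70156197 to 70170834), had 20, 18 and 65 counts in Cre− and 18, 22 and 50 counts in Cre+ replicates 1 to 3 (exact permutation p = 0.7). The third library was the highest in both groups. Clec10a is 96.7% identical to Mgl2 over 704 bases, and Mgl2 had at most 12 counts.

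In all, 8 of the 10 receptors could be tested, and 4 were called, 2 higher and 2 lower, where 5.07% of all genes tested were called. The libraries of the 2 groups did not overlap for 4 of the 8 (Clec7a, Clec4d, Clec4e and Clec4n), against 24.0% of all genes tested. Because the receptors were chosen with earlier results of these data known, these shares cannot show that the family changed more than other genes. The median log2 fold change of the 8 was 0.02, beside 0.00 for all genes tested. The called receptors lay on both sides of a median near that of the other genes.

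**Figure D2:**
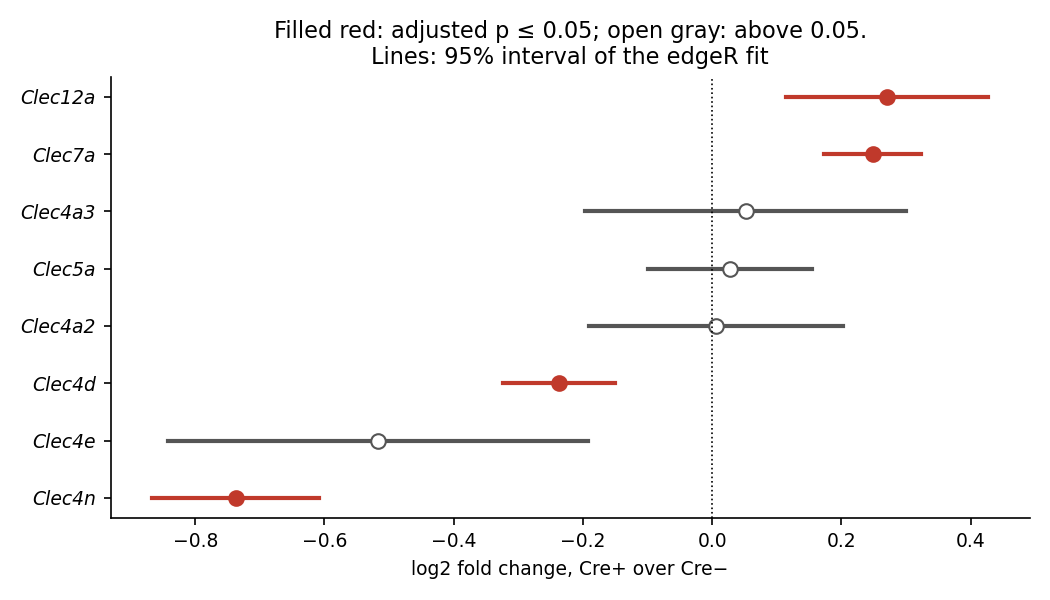
Log2 fold change of Cre+ over Cre− (horizontal axis) for the 8 receptors tested, with the 95% interval of the edgeR fit as a line, filled red where the adjusted p was at most 0.05. Clec12a and Clec7a lie to the right at 0.27 and 0.25, Clec4d and Clec4n to the left at -0.24 and -0.74, and Clec4e at -0.52 has the widest interval.

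Per length of gene, the receptors spanned a wide range and kept nearly the same order in both groups. In Cre− libraries Clec7a led at 886 to 894 RPKM, followed by Clec4d at 255 to 263 RPKM and Clec4n at 159 to 171 RPKM. Clec5a was at 19.8 to 20.8 RPKM. Next came Clec4a2 at 10.85 to 12.78 RPKM and Clec12a at 10.03 to 11.98 RPKM, whose ranges overlapped, so this pair did not differ beyond its spread. Clec4a3 (5.82 to 5.92 RPKM), Clec4e (1.06 to 1.41 RPKM), Clec4a1 (0.280 to 0.681 RPKM) and Clec10a (0.0672 to 0.251 RPKM) closed the order without overlap. In Cre+ libraries, Clec7a was at 1032 to 1090 RPKM, Clec4d at 213 to 223 RPKM and Clec4n at 88.7 to 107 RPKM. Clec12a had the higher mean of its pair there, 13.2 against 11.9 RPKM for Clec4a2, again with overlapping ranges, and Clec4a1 and Clec10a overlapped as well.

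The 10 receptors together held 0.314%, 0.315% and 0.310% of all counts in Cre− replicates 1 to 3 and 0.348%, 0.342% and 0.343% in Cre+ replicates 1 to 3. Clec7a made up 73.9%, 73.8% and 73.7% of these receptor counts in Cre− and 81.6%, 79.0% and 79.9% in Cre+ libraries. Its share was higher in every Cre+ library. Clec4d took 12.7% to 13.3% in Cre− and 9.68% to 10.4% in Cre+, and Clec4n took 7.13% to 7.58% in Cre− and 3.58% to 4.4% in Cre+. The other 7 genes together took 5.62% to 6.23% in Cre− and 5.13% to 6.22% in Cre+, ranges that overlapped. Without Clec7a the receptors summed to 823, 839 and 841 CPM in Cre− replicates 1 to 3 and to 648, 723 and 701 CPM in Cre+ replicates 1 to 3, so the sum of all 10 was higher and the sum without Clec7a lower in each Cre+ library.

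**Figure D3:**
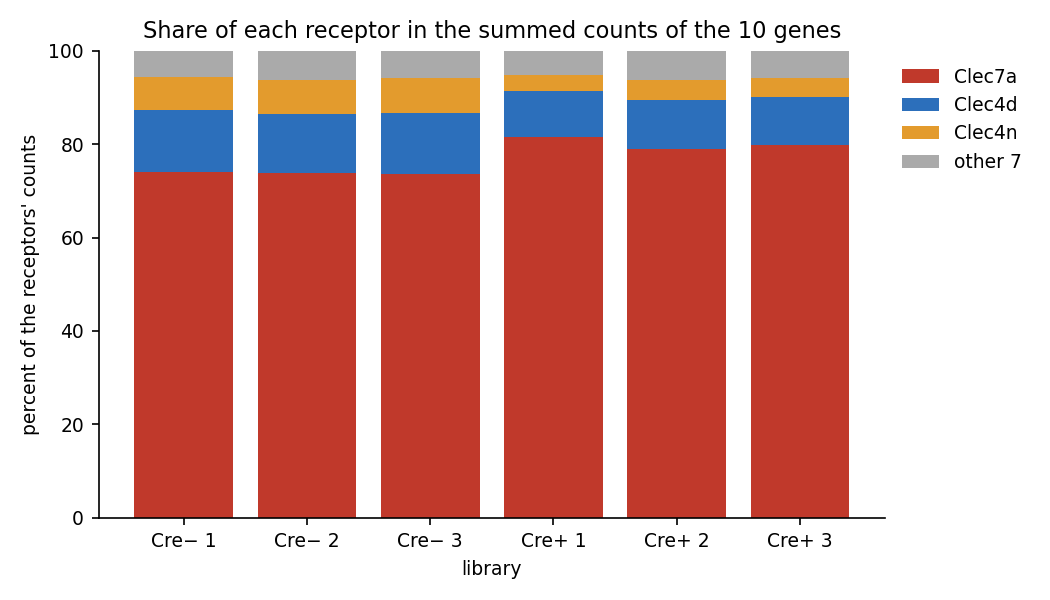
Share of Clec7a (red), Clec4d (blue), Clec4n (orange) and the other 7 receptors (gray) in the summed counts of the 10 genes, in percent on an axis from 0 to 100, 1 bar per library. The Clec7a share sits at 73.7% to 73.9% in the Cre− bars and at 79.0% to 81.6% in the Cre+ bars.

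Ratios of counts within a library need no scaling between libraries, and show only that 2 genes changed unequally. Set against Clec7a, Clec4n stood at log2 ratios of -3.38, -3.34 and -3.28 in Cre− replicates 1 to 3 and at -4.51, -4.17 and -4.29 in Cre+ replicates 1 to 3, a difference of -0.99. The same ratio for Clec4d differed by -0.49, from -2.51 ± 0.03 to -2.99 ± 0.07 (SD, n = 3, exact permutation p = 0.1). Clec4e differed by -0.76, Clec4a1 by -1.33 and Clec5a by -0.22, and for these 5 genes the groups did not overlap. For all 5, the exact permutation p was 0.1, the smallest possible, and 0.18 after adjustment over the 9 ratios. Clec7a itself rose by 0.25, and in their own CPM the groups overlapped for Clec5a (log2 difference 0.03) and Clec4a1. How many of all genes tested would separate in their ratio to Clec7a was not computed. The ratio of Clec12a to Clec7a differed by 0.02, at -5.28 ± 0.12 in Cre− and -5.26 ± 0.17 in Cre+ (SD, n = 3, exact permutation p = 0.9), while the ratios of Clec4a2 (-0.25), Clec4a3 (-0.20) and Clec10a (-0.50) differed with overlapping groups.

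The 9 receptor genes of chromosome 6 fell into 2 clusters and the lone Clec5a. Counting 250 kb on either side of the outermost receptors, the Clec4 cluster ran from 122671848 to 123539870 and held 31 genes, 6 of them receptors of the list, and the Clec7a cluster ran from 129092691 to 129722779 and held 32 genes, 2 of them receptors. In the Clec4 cluster 10 genes were tested, 1 of them called higher and 2 lower in Cre+, where 5.07% of all genes tested were called. The called genes were C3ar1 at one side and the neighbours Clec4n and Clec4d at the other, with Clec4a3, Clec4b1 and Clec4a2 between them, none called.

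C3ar1, the receptor of the complement fragment C3a, stood at 651, 645 and 616 CPM in Cre− replicates 1 to 3 and 754, 710 and 753 CPM in Cre+ replicates 1 to 3. It did not overlap between the groups and rose by 0.21 ± 0.04 on the log2 scale (SE, edgeR adjusted p = 0.00719). Of the other non-members tested, Foxj2, a forkhead factor, gave a log2 difference of 0.00, Necap1, an endocytosis adaptor, 0.09, Clec4b1 -0.18 and the processed pseudogene Gm10224 0.10, none of them called. Clec4n, Clec4d and Clec4e, which follow each other among the tested genes, were the 3 receptors with negative log2 fold changes.

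In the Clec7a cluster, 9 genes were tested and 2 were called, where 5.07% of all genes tested were called. These 2 were Clec12a and Clec7a, both higher. Their starts are 119 kb apart. The 3 tested lectin genes between them were Clec1b, a podoplanin receptor, with a log2 difference of 0.19 (95% interval -0.06 to 0.43), Clec9a, which binds actin of dead cells, with 0.10 (-0.33 to 0.53), and Clec1a with 0.22 (-0.26 to 0.71). None of these was called, and Clec1b and Clec9a share 184 exonic bases on one strand, so their counts are uncertain. Beyond Clec7a lies Olr1, the receptor of oxidized LDL, which went from 34.4 ± 0.672 to 29.1 ± 1.82 CPM (SD, n = 3) without overlap, a log2 difference of -0.24 with an edgeR adjusted p of 0.0562. The outer genes Clec2d (0.02), the lincRNA 2310001H17Rik (0.12) and Gabarapl1 (-0.01), a gene of autophagy, were not called.

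**Figure D4:**
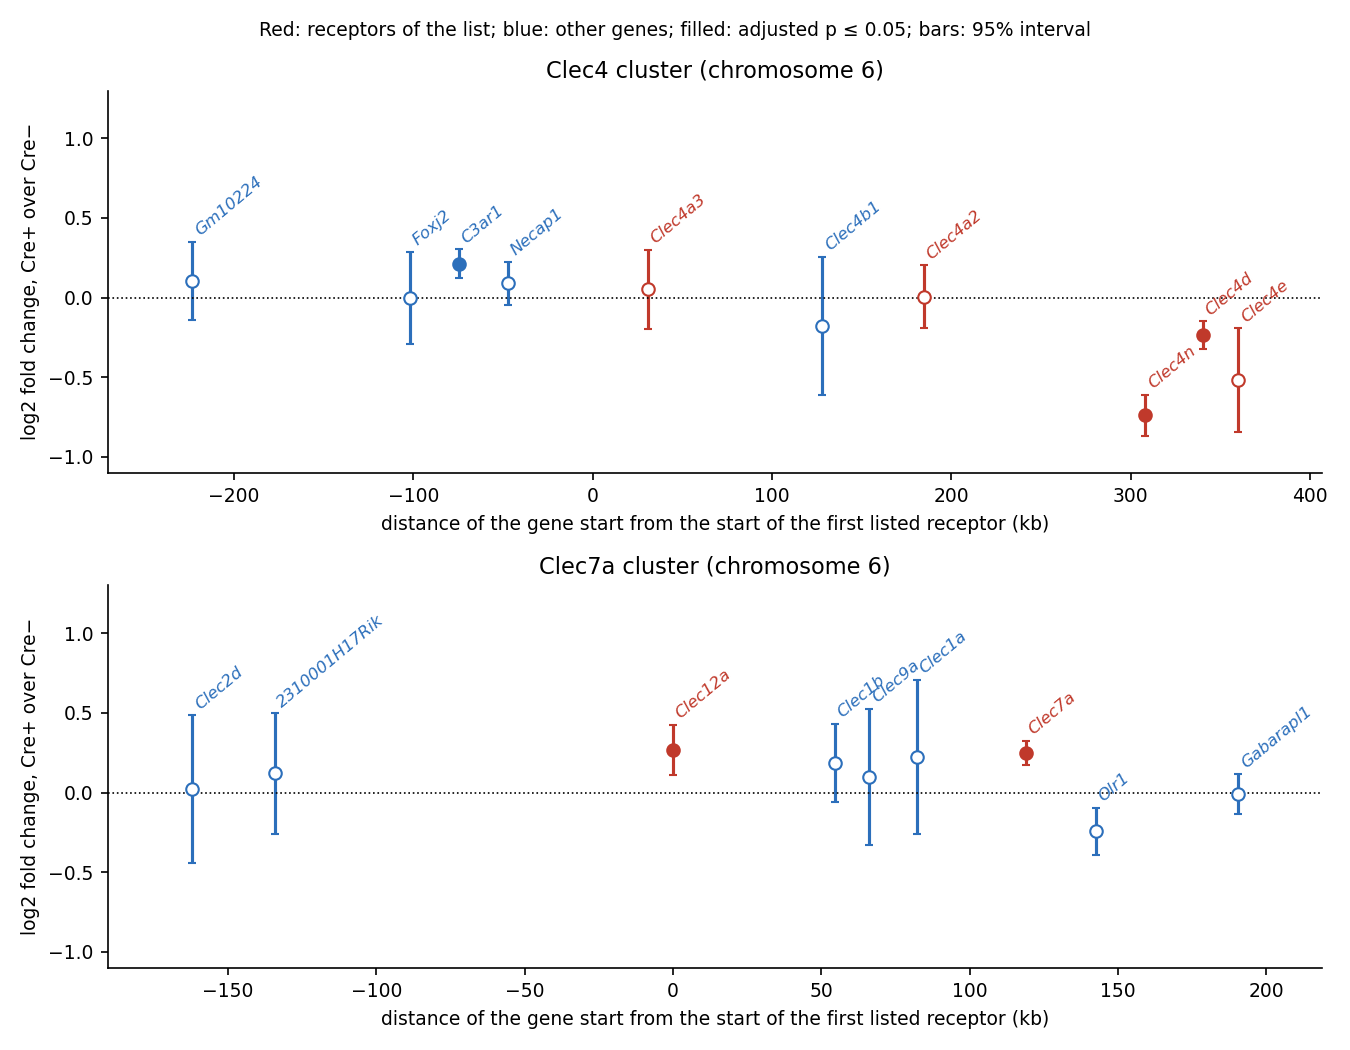
Log2 fold change of Cre+ over Cre− (vertical axis, bars are 95% intervals) of each tested gene along the Clec4 cluster (top) and the Clec7a cluster (bottom), by distance in kb from the first listed receptor. Receptors of the list are red, other genes blue, and filled points have an adjusted p of at most 0.05. Clec4n, Clec4d and Clec4e sit together at -0.74, -0.24 and -0.52 at the right of the top panel, with C3ar1 filled at 0.21 on the left, and Clec12a and Clec7a are the filled points of the lower panel.

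Few of the genes through which these receptors signal were called by edgeR, as were few of all genes tested (5.07%). Of 14 genes for adaptor chains and kinases, all tested, 0 were called by edgeR and DESeq2 called 1 (Prkcd). An unadjusted p under 0.05 was found for 6 of the 14, beside 19.1% of all genes tested. Their median log2 difference was -0.07, with 12 of 14 negative and values from -0.28 to 0.15, beside 0.00 for all genes tested. Tyrobp (DAP12) was the most abundant in CPM, at 2394, 2390 and 2589 in Cre− replicates 1 to 3 and 2292, 2250 and 2282 in Cre+ replicates 1 to 3, a log2 difference of -0.11 ± 0.04 (SE, edgeR adjusted p = 0.123). Although its groups did not overlap, the difference was smaller than that of any called receptor. For the partner chain of Clec4n, Clec4d and Clec4e, Fcer1g, the level was 1157 ± 38.3 CPM in Cre− and 1100 ± 16.8 CPM in Cre+ (SD, n = 3), a log2 difference of -0.07 with a 95% interval of -0.16 to 0.01. The kinase gene Syk differed by -0.02 on the log2 scale (-0.12 to 0.09).

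Of the 16 listed genes of the CARD9 and NF-κB steps, 15 were found and tested. Of these, 0 were called by edgeR, beside 5.07% of all genes tested, and 0 by DESeq2. An unadjusted p under 0.05 was found for 4, where 19.1% of all genes tested had one. The log2 differences of the 15 ran from -0.51 to 0.17 with a median of 0.00. The lowest was that of Vangl2, at a mean of 1.79 CPM in Cre− and 1.25 CPM in Cre+. Rela, the NF-κB subunit with the highest CPM of the list, had a CPM of 68.9 ± 1.11 in Cre− and 69.0 ± 3.68 in Cre+ (SD, n = 3). Card9 itself varied widely in Cre+ cells, at 4.59, 8.58 and 13.1 CPM in replicates 1 to 3 against 7.60 to 9.44 CPM in Cre−, and its 95% interval of -0.49 to 0.56 on the log2 scale could hold a change of the size of Clec4d's in either direction.

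On the inhibitory side, 8 phosphatase and adaptor genes were tested, 1 was called higher and 0 lower, beside 5.07% called of all genes tested. The called gene was Dok2, an adaptor that damps Ras signalling, at 65.4, 68.0 and 72.6 CPM in Cre− replicates 1 to 3 and 77.1, 84.7 and 83.1 CPM in Cre+ replicates 1 to 3. Its groups did not overlap, and it rose by 0.25 ± 0.06 on the log2 scale (SE, edgeR adjusted p = 0.0215), a call that was lost in 4 of the 6 fits that left out 1 library, those without Cre− replicate 1, Cre− replicate 2, Cre+ replicate 2 or Cre+ replicate 3. Ptpn6 (SHP-1) gave a log2 difference of -0.01 with a 95% interval of -0.12 to 0.09.

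Of 15 genes that these receptors are known to induce, among them Il1b, Tnf and Cxcl2, 7 were expressed enough to be tested. Of these, 0 were called by edgeR, beside 5.07% of all genes tested, and 0 by DESeq2. Only 1 had an unadjusted p under 0.05, beside 19.1% of all genes tested. That gene was Il1b, whose mean was 3.38 CPM in Cre− and 2.37 CPM in Cre+ libraries, a log2 difference of -0.52 with overlapping groups (edgeR adjusted p = 0.158). Egr2, the gene of this list with the highest CPM, had a CPM of 208 ± 9.38 in Cre− and 218 ± 18.0 in Cre+ (SD, n = 3).

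Beyond the 10 receptors, 55 other C-type lectin genes were listed. Of these, 14 were tested, 1 called higher and 0 lower, beside 5.07% called of all genes tested. The called gene was Mrc1, the mannose receptor of macrophages, at 57.4, 57.6 and 55.1 CPM in Cre− replicates 1 to 3 and 70.8, 77.9 and 86.6 CPM in Cre+ replicates 1 to 3. All Cre+ libraries were above all Cre− libraries, and Mrc1 rose by 0.47 ± 0.07 on the log2 scale (SE, edgeR adjusted p = 6.69e-04). The median log2 difference of the 14 was 0.02, close to that of the 8 receptors, and Colec12, a scavenger receptor and the lectin gene of the list with the highest CPM, differed by -0.03 (95% interval -0.12 to 0.05).

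**Figure D5:**
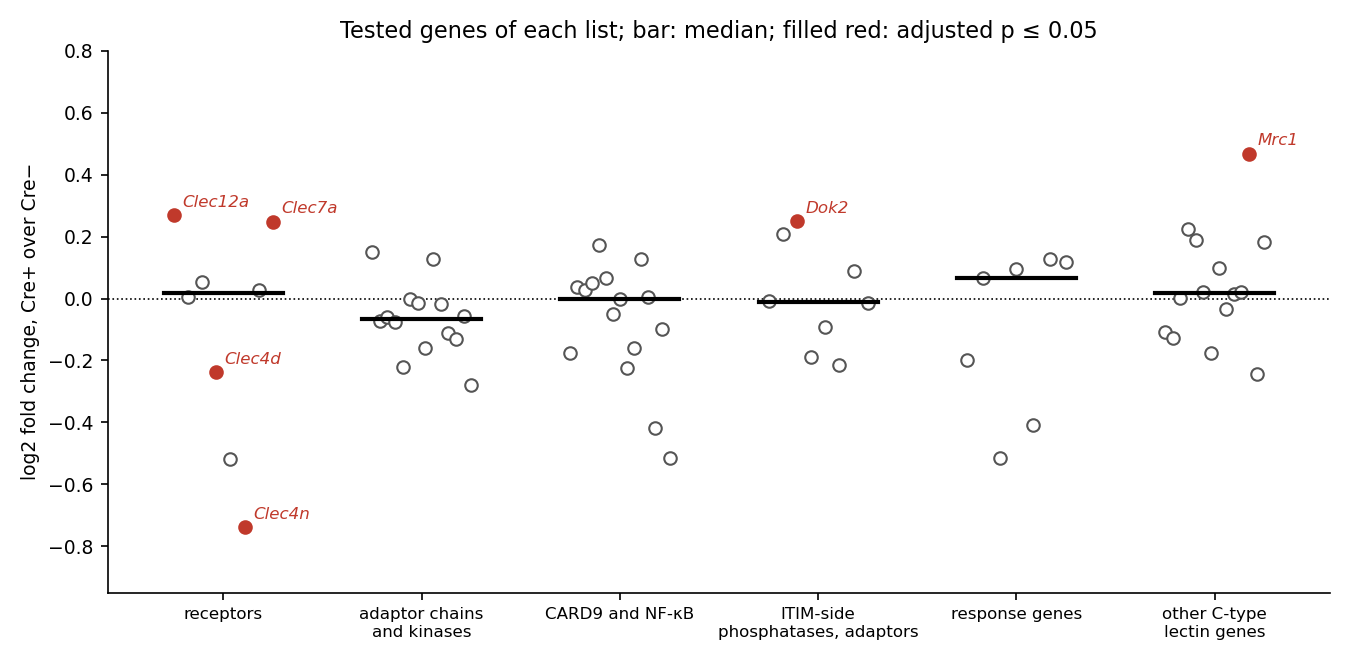
Log2 fold change of Cre+ over Cre− (vertical axis) of each tested gene in the receptor list and in the 5 lists of signalling, response and other lectin genes, with the median as a black bar and called genes filled red and named. Called genes appear among the receptors (4), the inhibitory side (Dok2) and the other lectins (Mrc1), and every median lies within 0.07 of 0.

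For each called receptor, the 3 genes most alike in log2 CPM over the 6 libraries were taken by Pearson's r from 8446 genes whose mean was 5 CPM or more, as a description. The 6 points of each r fall into the 2 groups, so a high r holds for any gene that differed cleanly between them. For Clec7a these were Ptafr (0.997), the receptor of platelet-activating factor, Mcoln3 (0.996), an endolysosomal channel, and Slc7a1 (0.995), an amino acid transporter. For Clec4n they were Creg1 (0.997), a lysosomal glycoprotein, Lpcat2 (0.993), an enzyme that makes platelet-activating factor, and Eci1 (0.993), an enzyme of fatty acid oxidation. Clec4d was closest to Cyth1 (0.998), an exchange factor of ARF proteins, Cxcl16 (0.996), a chemokine that also binds oxidized lipoprotein, and Wdfy1 (0.995), an endosomal protein. The values of Clec12a, Acap2 (0.983), Dag1 (0.981) and Psmc5 (0.981), were lower.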

How the data were processed

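RNA of 6 microglia libraries, 3 Cre− and 3 Cre+, was amplified from low input with a SMARTer kit and sequenced. The authors made gene counts with STAR alignment to GRCm38 and featureCounts on Ensembl genes (2.7.9a and 2.0.3 in the submitters' processing notes). The deposited counts are whole reads per gene, without normalization or filter. The deposited CPM values are counts per 1000000 of the library total, and the deposited FPKM values are CPM per 1000 bases of gene length as given in the files; both were used only to check units, and RPKM was recomputed from TMM-scaled CPM. Strand was not stated for the counting.

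Symbols came from GENCODE M21, in which 55227 of 55487 genes matched by identifier; the 260 others held 0.00257% of counts. After removal of 356 ribosomal RNA genes, genes above 1 CPM in at least 4 libraries entered edgeR 4.0.16 (R 4.3.3): TMM, quasi-likelihood F-test, no covariate, Benjamini-Hochberg adjustment over all 11429 genes, threshold 0.05. SE is the log2 fold change over the root of F. The coefficient of variation between libraries was 10%. Libraries of a group differed by 13.2 to 18.2 chi-square units per degree of freedom, so none was a duplicate. Data were also simulated for Cre+ against Cre− (11429 genes), with the same dispersion of 0.01 for every gene. On these, the test called 68% of genes changed by 0.5 and 97% of genes changed by 1 on the log2 scale. Smaller changes, such as those of Clec7a, Clec4d and Clec12a, were not simulated.

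The receptors and gene lists were chosen with earlier results of these data known. Named were all 10 receptors, the tested genes of both clusters and the called genes of each list (otherwise the most abundant). The 3 genes most alike each called receptor and Nr1d1 were named too. Fcer1g, Syk, Card9, Vangl2, Ptpn6, Il1b, Tnf, Cxcl2, Colec12 and the uncalled cell type markers were added after their values were seen. Ratios and genes below the filter were compared by exact 2-sided permutation tests (scipy 1.17.1). Alternatives were library totals, DESeq2's size factors, DESeq2 1.42.0, limma 3.58.1 voomWithQualityWeights (the test of the study), 3 other filters, the replicate number as a block, leaving out each library, and, added after the data were seen, TMM factors before the filter. The methods of the study describe TMM factors before the filter. Transcripts were compared with blastn 2.17.0. Promoters are RefSeq's (GRCm38.p6).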

Additional observations from a re-analysis of the deposited data

How the results depend on the processing

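Clec7a (0.23 to 0.33) and Clec4n (-0.80 to -0.66) kept their direction and passed the threshold in all 15 alternatives, and between 3 and 5 receptors were called in each, 3 to 4 when 1 library was left out. Clec4d lost its call with no filter (-0.16) and with TMM factors before the filter (-0.16), Clec12a with voomWithQualityWeights (0.26) and DESeq2's size factors (0.27) and in 4 of the 6 fits without 1 library (0.21 to 0.34 over the 6), and Clec4e (-0.52) gained one with DESeq2. The uncalled receptors Clec4a2 (-0.012 with voomWithQualityWeights, -0.092 to 0.11 without 1 library), Clec4a3 (-0.023 to 0.11 without 1 library) and Clec5a (-0.0086 to 0.088 without 1 library) changed sign near 0. Over all genes, 886 were called by DESeq2, 1528 with no filter (43842 genes, median log2 difference -0.20), 1012 with TMM factors before the filter (81.9% higher against 49.4%, with the median of all genes shifted to 0.08) and 321 to 435 without 1 library. The cause of these moves was not tested.

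In the Clec7a cluster, 1 gene (Clec7a) was called with DESeq2's size factors and with voomWithQualityWeights, and 1 to 3 without 1 library. The adaptor and kinase list gained 1 call with DESeq2 (Prkcd) and 1 with TMM factors before the filter (Btk). The CARD9 list gained 1 (Ikbkg) with no filter and 1 with TMM factors before the filter. The inhibitory list had 2 calls (Dok1, Dok2) with DESeq2, with no filter and with TMM factors before the filter, and 0 to 2 without 1 library. Cxcl1 was the 1 response gene called with no filter. The other lectins had 2 calls with DESeq2 (Mrc1, Olr1) and 2 with no filter (Mrc1, Pla2r1), and 1 to 2 without 1 library.

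The labels do not say that the replicate numbers pair libraries. Same-numbered libraries correlated at 0.01, -0.02 and -0.04 in their deviations from the group means. Such correlations over 3 libraries per group cannot exclude a pairing. With the replicate block, 430 genes and the same 4 receptors were called. Groups of 3 libraries limit the test, and Clec4a1 and Clec10a are limited by counts under 100 per library.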
